A study of Mus musculus with 12 samples.

Results

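The proteasome subunit genes examined here are the 42 rows of the gene table, of 36292 in all, whose symbol is PSM followed by a letter from A to F and a number, without the inducible subunit genes PSMB8 and PSMB9. They comprise 17 core particle genes (PSMA and PSMB), 20 genes named for the regulatory particle (PSMC and PSMD), and 5 genes of activators or an inhibitor (PSME and PSMF). The rule reads gene names and no measured value. RNA was sequenced from subcutaneous xenografts of the human liver cancer line Hep3B in 4 treatment groups of 3 mice each. The first group received H3B-6527 at 300 mg/kg together with lenvatinib at 10 mg/kg (the combination), the next H3B-6527 alone, the next lenvatinib alone, and the last vehicle. H3B-6527 is a covalent inhibitor of the receptor tyrosine kinase FGFR4, and lenvatinib inhibits several receptor tyrosine kinases, among them the VEGF and FGF receptors.

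All tumors grew in the flank of female BALB/c nu/nu mice, which lack T cells, and were implanted at about 8 weeks of age. Dosing by gavage, given daily, began at a mean tumor volume near 500 mm3, and every tumor was taken 8 hours after dose 4. All 12 tumors come from a single cell line, so the replicates are mice and not patients or lines. No dose or time series was run, and the labels give no batch.

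The proteasome is the protease that degrades proteins tagged with ubiquitin. Its core particle is a barrel of alpha (PSMA) and beta (PSMB) rings that encloses the proteolytic sites, and its regulatory particle binds, deubiquitinates, unfolds and feeds in the substrate through a ring of ATPases (PSMC) and a set of non-ATPase subunits (PSMD). The PSME proteins are alternative caps that open the barrel without the regulatory particle. Liver cancer cells, which make and secrete large amounts of protein, express the whole complex, and in mammalian cells the transcription factor NFE2L1 is known to raise subunit genes together when proteasome activity falls.

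Library totals ran from 23.8 M to 40.9 M estimated counts. Levels are given as CPM, the depth-normalised counts in common use, scaled by the trimmed mean of M values (TMM), and since gene lengths were not used, levels are compared between tumors and never between genes. The tumors carried liver cancer markers in quantity: 8 of them (ALB, AFP, GPC3, APOA1, APOB, TTR, TF and FGB) summed to between 153700 and 175200 CPM in combination tumors, 127300 and 191800 CPM in H3B-6527 tumors, 83420 and 103400 CPM in lenvatinib tumors, and 78480 and 86170 CPM in vehicle tumors. Host cell markers, read under human symbols, were near 0 for endothelium (5 genes, at most 0.782 CPM summed in any tumor) and for lymphoid or antigen-presenting cells (6 genes, at most 1.297 CPM summed). The host is a mouse and the symbols are human, so none of the host lists can show how much host tissue the tumors held. The macrophage list of 5 genes summed to 133 to 201 CPM in H3B-6527 tumors and 84.0 to 116 CPM in vehicle tumors, nearly all of it CD68, while PTPRC stayed at or below 1.19 CPM in every tumor. The fibroblast list of 6 genes summed to 24.5 to 28.1 CPM in H3B-6527 tumors and 72.8 to 82.6 CPM in vehicle tumors, most of it PDGFRA, and 2 adipocyte genes to 27.9 to 71.0 CPM and 3.18 to 3.69 CPM in the same groups, nearly all of it PLIN1. The muscle list of 4 genes stayed between 1.07 and 2.43 CPM in all groups. None of these lists had a gene at 0 in every library, and their part in the proteasome results was not tested. In bulk tumor RNA, fewer cells of a type and less RNA per cell cannot be told apart.

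Of the 42 genes, 40 had enough counts to be tested, with between 2205 (PSMD10) and 123455 (PSMD2) counts over the 12 libraries. PSMA8, an alpha subunit of the testis, had no count in any library, which allows up to 0.0762 to 0.126 CPM per library at 3 counts. PSMB11, the beta subunit of the thymic cortex, had 5 counts in all. PSMB8 and PSMB9, which lie outside the set, had 26 and 6 counts over all 12 libraries, so almost no reads were assigned to those human immunoproteasome genes. These counts cannot show what the mouse host cells held. Together the 42 genes took 0.303 ± 0.0169% of all counts in combination tumors, 0.309 ± 0.0390% in H3B-6527 tumors, 0.392 ± 0.0126% in lenvatinib tumors and 0.422 ± 0.0240% in vehicle tumors (SD, n = 3 each). These are shares of library totals, without TMM scaling. On that scale the median log2 fold change of all genes against vehicle was itself -0.14 with the combination and -0.11 with H3B-6527.

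**Figure D1:**
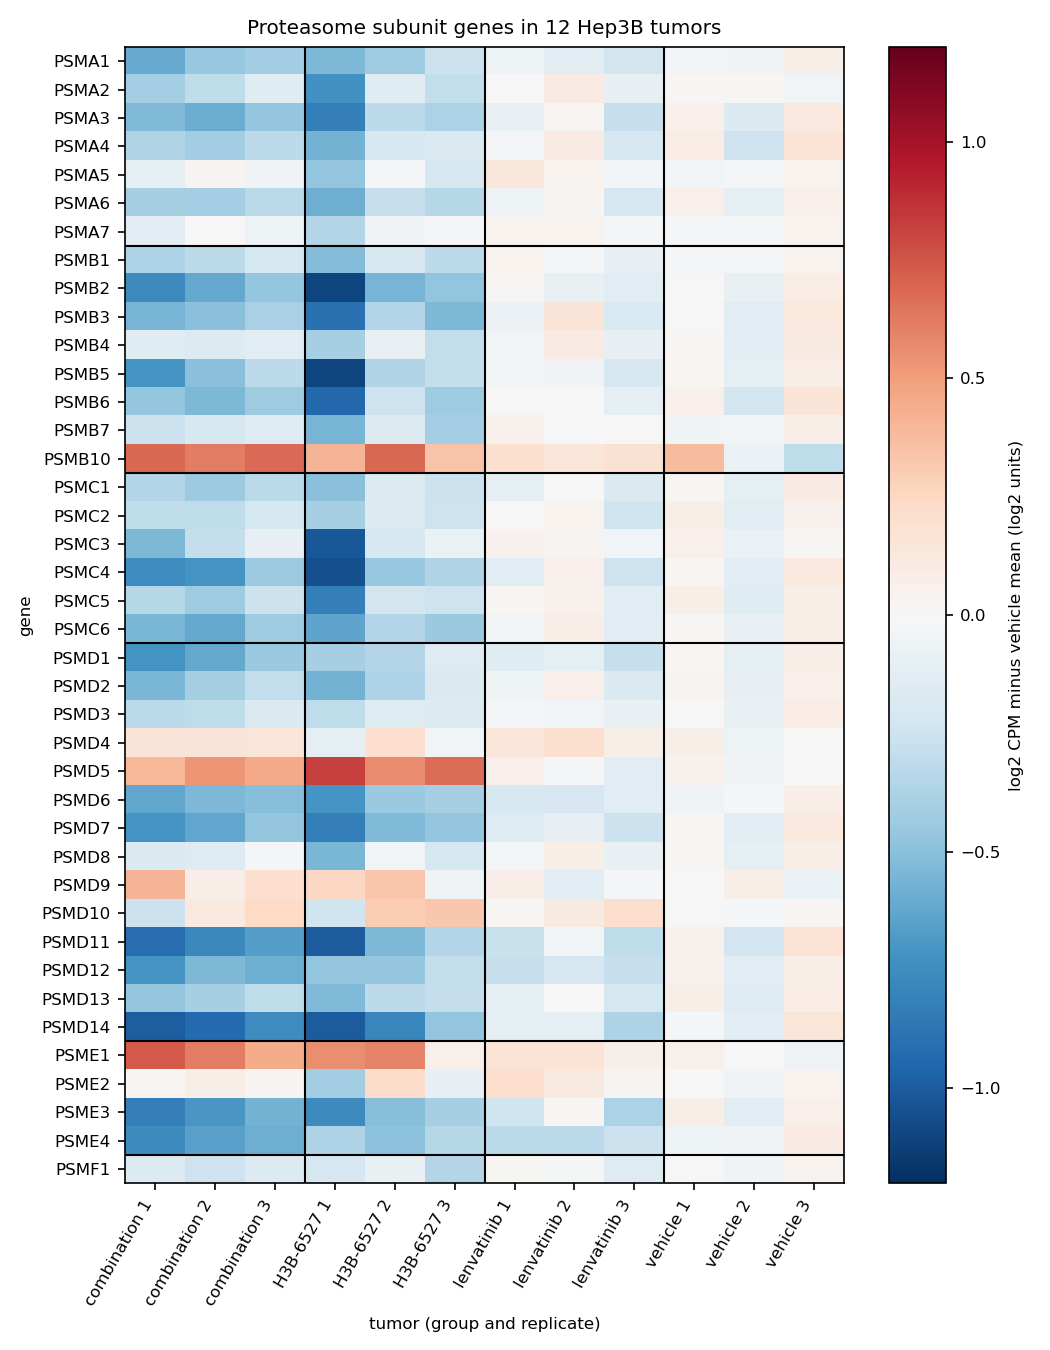
Each row is one of the 40 tested proteasome genes and each column a tumor, grouped as combination, H3B-6527, lenvatinib and vehicle; color gives log2 CPM minus the vehicle mean for that gene. Most PSMA, PSMB, PSMC and PSMD rows are blue in combination and H3B-6527 tumors, PSMD5, PSMB10 and PSME1 are red there, and H3B-6527 replicate 1 is the darkest blue column.

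H3B-6527 alone was set against vehicle to ask what the FGFR4 inhibitor did to these genes. Transcripts of most proteasome subunits fell: 28 of 40 were lower and 3 higher in H3B-6527 tumors by edgeR's quasi-likelihood test at an adjusted p under 0.05, where 24.3% of the 15836 genes tested were lower and 25.2% higher (49.4% in either direction). The called falls ran from 13.3% (PSMD3) to 40.3% (PSMD14). The median log2 fold change was -0.37 over the core particle genes and -0.37 over the regulatory particle genes, against 0.01 over all genes tested, and -0.21 over the 5 activator and inhibitor genes. All 3 H3B-6527 tumors lay below all 3 vehicle tumors for 28 of the 40 genes and above them for 2, where the shares over all genes were 27.9% and 28.1%.

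Among the alpha ring genes, 4 of 7 fell and none rose. PSMA1 had 40.4, 43.8 and 49.1 CPM in H3B-6527 tumors, against 57.6, 57.1 and 61.6 CPM in vehicle tumors. PSMA3 had 39.0, 55.3 and 52.9 CPM in H3B-6527 tumors and 71.8, 60.7 and 74.3 CPM in vehicle tumors. Neither gene's groups overlapped, and the log2 fold changes were -0.40 ± 0.09 (SE) for PSMA1 and -0.49 ± 0.13 for PSMA3 (adjusted p = 0.00214 and 0.00636). PSMA6 fell by a like amount, at -0.40 ± 0.09 (adjusted p = 0.00372), and PSMA2 at -0.37 ± 0.12 (adjusted p = 0.0250). PSMA2 missed under 5 of the 11 alternatives and was at -0.22 with H3B-6527 replicate 1 left out. The 3 alpha genes that did not pass were also negative, at -0.31 for PSMA4, -0.22 for PSMA5 and -0.13 for PSMA7.

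All 7 constitutive beta subunit genes fell. The largest fall was in PSMB2, a non-catalytic beta subunit, with 33.3, 48.5 and 51.5 CPM in H3B-6527 tumors, against 71.4, 67.3 and 76.2 CPM in vehicle tumors. Its log2 fold change was -0.69 ± 0.14 (adjusted p = 0.00112), and the highest H3B-6527 tumor was well under the lowest vehicle tumor. PSMB3, likewise non-catalytic, followed at -0.59 ± 0.13 (adjusted p = 0.00240), and PSMB1 and PSMB4 at -0.34 and -0.26, of which PSMB4 missed under 5 of the 11 alternatives.

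The proteolytic sites themselves are carried by PSMB5 (chymotrypsin-like, the site bound by bortezomib), PSMB6 (caspase-like) and PSMB7 (trypsin-like). PSMB5 had 46.8, 78.2 and 82.1 CPM in H3B-6527 tumors and 103, 93.6 and 106 CPM in vehicle tumors. PSMB6 had 22.9, 37.2 and 32.8 CPM in H3B-6527 tumors and 46.1, 38.0 and 49.1 CPM in vehicle tumors. PSMB7 had 49.7, 65.7 and 55.5 CPM in H3B-6527 tumors and 71.4, 71.8 and 77.0 CPM in vehicle tumors. The groups did not overlap for any of the 3, although PSMB6 was separated by less than 1 CPM. The log2 fold changes were -0.55 ± 0.17, -0.52 ± 0.15 and -0.37 ± 0.09 in that order (adjusted p = 0.0204, 0.0103 and 0.00525). The PSMB5 and PSMB6 calls were lost when the fit held H3B-6527 and vehicle tumors alone (adjusted p = 0.0576 and 0.0522), and PSMB5 also missed with vehicle replicate 1 or 3 left out (0.0547 and 0.0636).

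PSMB10, the inducible counterpart of PSMB7 in the immunoproteasome, moved the other way. It was scarce, with 5.79, 6.99 and 5.53 CPM in H3B-6527 tumors, against 5.67, 4.13 and 3.52 CPM in vehicle tumors, so the groups overlapped. The log2 fold change was 0.46 ± 0.16 (adjusted p = 0.0312). The call depended on single libraries, with adjusted p = 0.127 without H3B-6527 replicate 2 and 0.140 without vehicle replicate 3.

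In the regulatory particle, 5 of the 6 ATPase genes fell. PSMC6 had 48.1, 58.5 and 54.7 CPM in H3B-6527 tumors, against 75.1, 70.3 and 78.7 CPM in vehicle tumors (log2 fold change -0.47 ± 0.09, adjusted p = 0.000975). PSMC4 had 59.5, 90.4 and 96.2 CPM in H3B-6527 tumors and 126, 112 and 134 CPM in vehicle tumors (-0.60 ± 0.16, adjusted p = 0.00777). The exception was PSMC3, at 107, 189 and 205 CPM in H3B-6527 tumors and 227, 205 and 220 CPM in vehicle tumors. The highest H3B-6527 tumor (204.68 CPM) was barely under the lowest vehicle tumor (204.84 CPM). Its H3B-6527 tumors lay far apart, and the test missed (-0.38 ± 0.19, adjusted p = 0.118). PSMC1, PSMC2 and PSMC5 fell as well, at log2 fold changes of -0.31, -0.27 and -0.41. All 3 missed in the 2 groups alone (adjusted p = 0.0612, 0.0604 and 0.0764) and with vehicle replicate 1 or 3 left out, and PSMC1 and PSMC2 also without H3B-6527 replicate 1.

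The lid, the part of the regulatory particle that removes ubiquitin, had 7 of its 8 genes lower and a median of -0.46. PSMD14 is its deubiquitinase and showed the largest fall among the 40 genes, with 33.8, 39.2 and 48.8 CPM in H3B-6527 tumors, against 66.9, 61.7 and 74.9 CPM in vehicle tumors. The log2 fold change was -0.74 ± 0.13 (adjusted p = 0.000457), and no tumor of either group came near the other. PSMD7, the partner with which PSMD14 forms its dimer, had 39.1, 48.0 and 50.1 CPM in H3B-6527 tumors and 69.9, 63.1 and 74.9 CPM in vehicle tumors (-0.60 ± 0.11, adjusted p = 0.000468). The scaffold genes PSMD6, PSMD11 and PSMD12 were at -0.51 ± 0.09, -0.61 ± 0.15 and -0.41 ± 0.09 (adjusted p = 0.000413, 0.00525 and 0.00163), and PSMD13 and PSMD3 at -0.38 and -0.21, of which PSMD3 missed under 5 of the 11 alternatives. PSMD8 was the lid gene that did not pass, at -0.25 ± 0.11 (adjusted p = 0.0787).

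Of the non-ATPase subunits at the base, the scaffold PSMD2 had 227, 260 and 299 CPM in H3B-6527 tumors and 344, 315 and 352 CPM in vehicle tumors (-0.36 ± 0.11, adjusted p = 0.0147). It no longer passed with vehicle replicate 3 left out (adjusted p = 0.0561). PSMD1, the other scaffold, fell by 0.30 on the log2 scale (adjusted p = 0.0204), and missed under 5 of the 11 alternatives (adjusted p up to 0.0816). The ubiquitin receptor PSMD4 stood outside the pattern: it had 224, 277 and 235 CPM in H3B-6527 tumors and 253, 230 and 240 CPM in vehicle tumors. Those groups overlapped throughout, and the log2 fold change of 0.02, which became -0.10 when scaled by library totals alone, had a 95% interval from -0.16 to 0.21.

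PSMD5, PSMD9 and PSMD10 carry subunit names but act as chaperones that assemble the base and are not part of the finished particle. PSMD5 rose, with 36.3, 30.4 and 32.7 CPM in H3B-6527 tumors, against 21.3, 19.97 and 20.5 CPM in vehicle tumors. The lowest H3B-6527 tumor was above every vehicle tumor, at a log2 fold change of 0.69 ± 0.09 (adjusted p = 4.37e-05, the smallest of the 40). PSMD9 was at 0.19 ± 0.12 (adjusted p = 0.188). PSMD10, known as gankyrin and as an oncoprotein in liver cancer, was scarce, at 4.24, 6.18 and 6.24 CPM in H3B-6527 tumors and 4.97, 4.94 and 5.07 CPM in vehicle tumors, and did not pass (0.15 ± 0.17, adjusted p = 0.492).

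**Figure D2:**
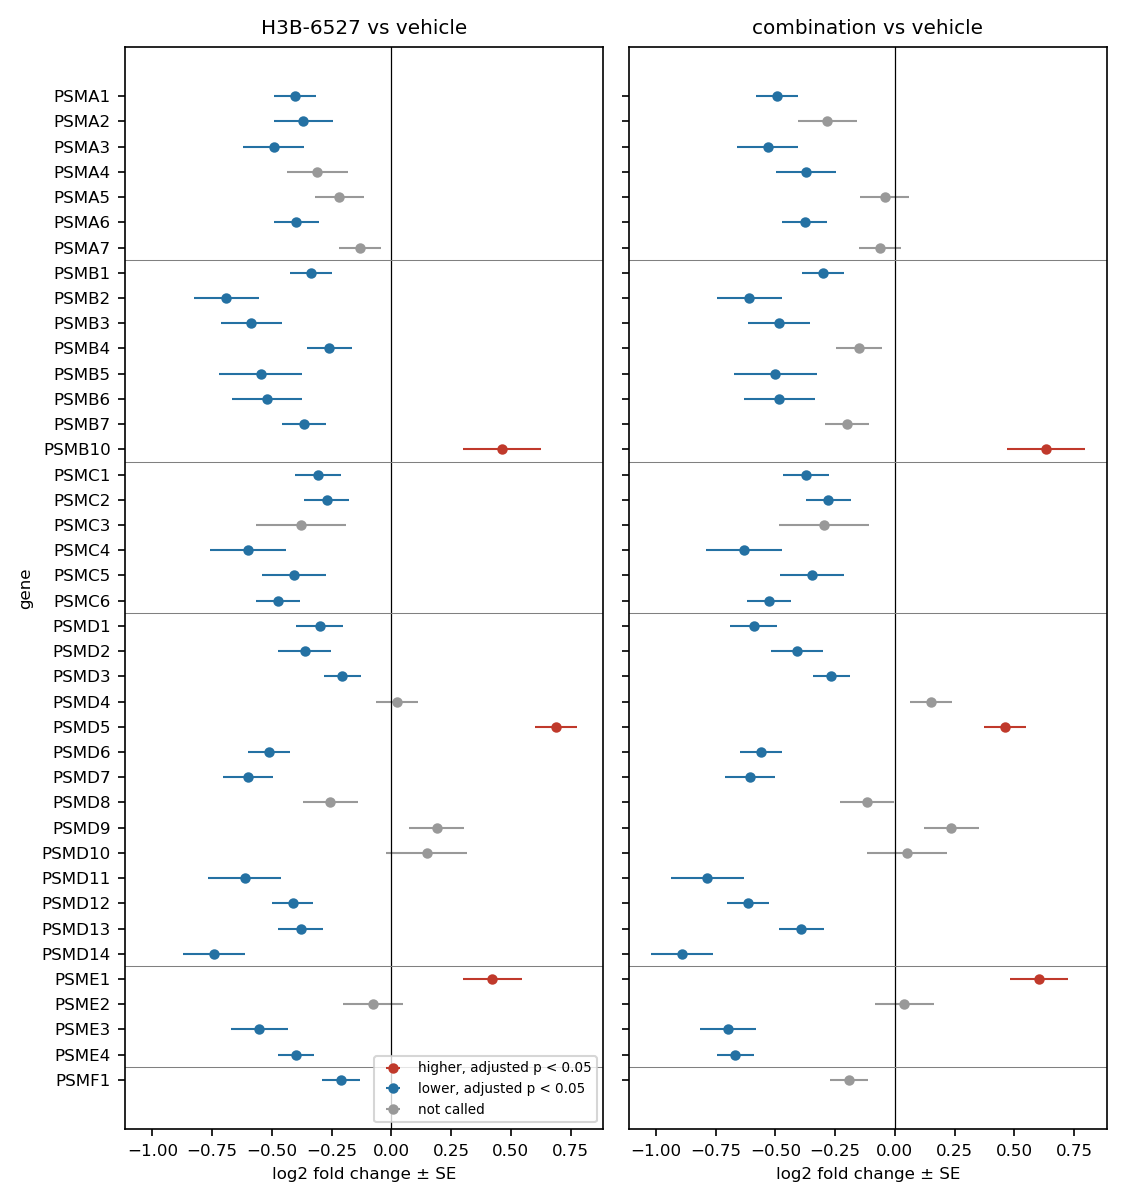
Log2 fold change (x axis, points, with bars of 1 SE) of each tested proteasome gene (y axis) in H3B-6527 against vehicle tumors at left and combination against vehicle tumors at right; blue marks genes lower and red genes higher at an adjusted p under 0.05. Most PSMA to PSMD genes lie left of 0 in both panels, with PSMD14 furthest left at -0.74 and -0.89, while PSMB10, PSMD5 and PSME1 lie right of 0.

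The activators split. PSME1 and PSME2 form the interferon-inducible cap PA28 alpha-beta. PSME1 had 87.3, 89.4 and 61.8 CPM in H3B-6527 tumors, against 61.7, 59.4 and 57.0 CPM in vehicle tumors, while PSME2 had 42.1, 65.8 and 52.5 CPM and 56.3, 54.6 and 58.2 CPM in the same groups. PSME1 rose (0.42 ± 0.12, adjusted p = 0.0119), though H3B-6527 replicate 3 exceeded the vehicle tumors by little and the gene missed with replicate 2 of that group left out (adjusted p = 0.0566). PSME2 did not pass, at -0.08 ± 0.12 (adjusted p = 0.636).

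PSME3, the nuclear activator PA28 gamma, had 63.7, 75.9 and 81.8 CPM in H3B-6527 tumors and 113, 98.6 and 112 CPM in vehicle tumors (-0.55 ± 0.12, adjusted p = 0.00194). PSME4, the nuclear activator PA200, had 149, 137 and 152 CPM in H3B-6527 tumors and 186, 187 and 206 CPM in vehicle tumors (-0.40 ± 0.08, adjusted p = 0.000961). Both nuclear caps thus fell with no overlap between groups. PSMF1, the proteasome inhibitor PI31, fell slightly, at -0.21 ± 0.08 (adjusted p = 0.0431), a call lost under 7 of the 11 alternatives.

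For the 40 genes, the 3 H3B-6527 tumors differed among themselves more than those of the other groups. The median coefficient of variation over the 40 genes was 5.94% in combination tumors, 13.0% in H3B-6527 tumors, 6.31% in lenvatinib tumors and 6.29% in vehicle tumors. It was not computed over all genes, so the wider spread cannot be read as particular to the proteasome genes. H3B-6527 replicate 1 was the lowest of its group for 34 of the 40 genes, with a core particle median of -0.56 relative to the vehicle mean on the log2 scale, where replicates 2 and 3 were at -0.19 and -0.30. The spread was widest for PSMC3 (31.3%) and narrowest for PSME4 (5.44%). Without H3B-6527 replicate 1, 21 genes were lower and 3 higher, and the medians were -0.28 for the core and -0.24 for the regulatory particle. Calls over all genes went down too. Lower calls went from 3842 of 15836 genes to 3365 of 16036, and higher calls from 3987 to 3435. Lenvatinib replicate 3 was the lowest of its group for 35 genes and vehicle replicate 2 for 32. The shares of all genes lowest in these tumors and in H3B-6527 replicate 1 were not computed. These counts therefore describe single tumors and cannot be read as particular to the set.

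**Figure D3:**
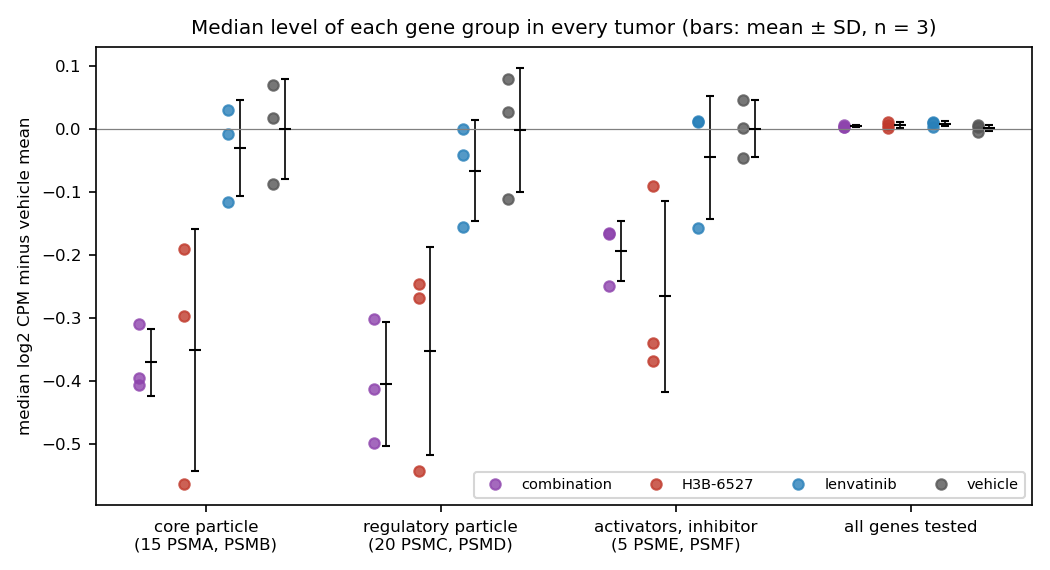
Median over the genes of each set of log2 CPM minus the vehicle mean (y axis), one point per tumor, with mean and SD bars (n = 3), for the core particle, regulatory particle, activators and all genes tested. Combination and H3B-6527 tumors lie below every vehicle tumor for core and regulatory genes, H3B-6527 replicate 1 lies lowest at -0.56 and -0.54, and the medians of all genes lie near 0.

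The core median was -0.39, -0.41 and -0.31 in combination tumors, -0.56, -0.19 and -0.30 in H3B-6527 tumors, -0.01, 0.03 and -0.12 in lenvatinib tumors, and 0.02, -0.09 and 0.07 in vehicle tumors. The regulatory median was -0.50, -0.41 and -0.30 in combination tumors, -0.54, -0.27 and -0.25 in H3B-6527 tumors, -0.04, 0.00 and -0.16 in lenvatinib tumors, and 0.03, -0.11 and 0.08 in vehicle tumors. Within a tumor, the core median minus the regulatory median ran from -0.0509 (H3B-6527 replicate 3) to 0.104 (combination replicate 1).

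The combination gave much the same picture against vehicle. Of the 40 genes, 25 were lower and 3 higher in combination tumors at an adjusted p under 0.05 by edgeR, where 25.3% of all genes were lower and 24.8% higher (50.1% in either direction). Medians were -0.37 over the core, -0.38 over the regulatory particle and -0.19 over the activators, against 0.01 over all genes. Called falls ran from 16.8% (PSMD3) to 46.1% (PSMD14). Combination tumors all lay below vehicle tumors for 29 genes (32.8% of all genes did so) and above them for 5 (31.8%). These vehicle tumors are the ones used above for H3B-6527, so the comparisons with vehicle are not independent.

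PSMD14 again showed the largest fall, with 34.1, 35.5 and 40.0 CPM in combination tumors, all under the vehicle minimum of 61.7 CPM (-0.89 ± 0.13, adjusted p = 0.000119). The lid median was -0.58, with PSMD11 at -0.79 ± 0.15, PSMD12 at -0.61 ± 0.09, PSMD7 at -0.61 ± 0.11 and PSMD6 at -0.56 ± 0.09. PSMD1, the base scaffold, had 141, 152 and 170 CPM in combination tumors, against 237, 215 and 246 CPM in vehicle tumors (-0.59 ± 0.10, adjusted p = 0.000285). Of the ATPases, 5 of 6 fell, from -0.28 (PSMC2) to -0.63 (PSMC4), with PSMC2 missing under 4 and PSMC5 under 5 of the 11 alternatives, and PSMC3 again missed (-0.30 ± 0.19, adjusted p = 0.214).

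In the core particle, 4 of 7 alpha genes and 5 of 8 beta genes fell. Of these, PSMA4 missed under 4 of the 11 alternatives (adjusted p up to 0.116). PSMB1 missed with combination replicate 1 left out (adjusted p = 0.0519). PSMB2 had 42.2, 46.7 and 51.9 CPM in combination tumors (-0.61 ± 0.14, adjusted p = 0.00243). PSMB5 had 61.1, 71.3 and 81.2 CPM in the same tumors (-0.50 ± 0.17, adjusted p = 0.0299), and missed with vehicle replicate 1 or 3 or combination replicate 1 or 2 left out (adjusted p = 0.0736, 0.0864, 0.117 and 0.0731). PSMB6 passed at -0.48 ± 0.15 (adjusted p = 0.0149), but missed with vehicle replicate 3 or combination replicate 2 left out (adjusted p = 0.0680 and 0.0546). PSMB7 did not pass, at -0.20 ± 0.09 (adjusted p = 0.0841). PSMA5 and PSMA7 did not pass, at -0.04 ± 0.10 and -0.06 ± 0.09.

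PSMB10 had 7.02, 6.67 and 6.96 CPM in combination tumors, above all vehicle tumors (0.63 ± 0.16, adjusted p = 0.00578). PSME1 had 98.9, 90.7 and 81.0 CPM there, likewise above all vehicle tumors (0.60 ± 0.12, adjusted p = 0.00131). PSMD5 had 27.2, 29.7 and 28.2 CPM (0.46 ± 0.09, adjusted p = 0.000832). The remaining immune-type cap gene PSME2 stayed at 57.1, 59.0 and 57.7 CPM, beside the vehicle tumors (0.04 ± 0.12, adjusted p = 0.811). PSMD4 had 269, 268 and 266 CPM, above every vehicle tumor but without passing (0.15 ± 0.09, adjusted p = 0.169).

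**Figure D4:**
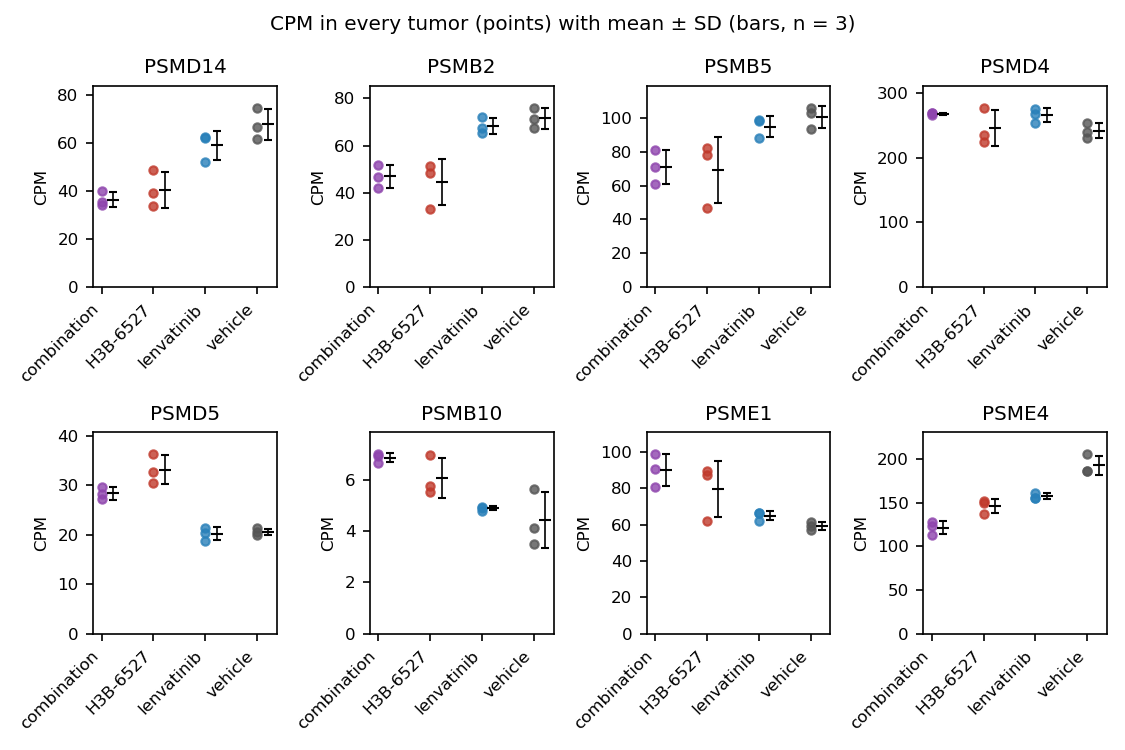
CPM (y axis, from 0) in every tumor of the 4 groups for 8 proteasome genes, with mean and SD bars (n = 3). PSMD14, PSMB2 and PSMB5 are low in combination and H3B-6527 tumors, PSMD4 lies between 224 and 277 CPM throughout, PSMD5, PSMB10 and PSME1 are higher there than in vehicle tumors on average, and PSME4 is lowest in combination tumors at 113 to 128 CPM.

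Against lenvatinib, which shares no tumor with the H3B-6527 and vehicle pair, the combination had 21 of the 40 genes lower and 3 higher, where 20.9% of all genes were lower and 19.1% higher (40% in either direction). Combination tumors all lay below lenvatinib tumors for 29 genes (29.7% of all genes did so) and above them for 4 (27.2%). Medians were -0.30 over the core, -0.32 over the regulatory particle and -0.14 over the activators. All 21 genes lower here were among the 28 lower with H3B-6527 alone, which is 100% of this list and 75.0% of that one, and the 3 higher genes were PSMB10, PSMD5 and PSME1 in each. Over the 40 genes, the log2 fold changes of the 2 pairs ran together with Pearson r = 0.97 and Spearman rho = 0.95, given as a description over genes that are not independent, and 39 had the same sign. The overlap, correlations and shared signs were not computed over all genes, so this agreement cannot be read as particular to the proteasome genes. PSMD14 had 34.1, 35.5 and 40.0 CPM in combination tumors and 62.3, 62.7 and 52.2 CPM in lenvatinib tumors (-0.69 ± 0.13, adjusted p = 0.00129). PSMB2 was at -0.54 ± 0.14 and PSMC6 at -0.50 ± 0.09 (adjusted p = 0.00732 and 0.00115). PSMB10 rose by 0.49 ± 0.16 (adjusted p = 0.0291), but missed when any of the 6 tumors in this pair was left out (adjusted p from 0.0599 to 0.0785). The count of lower genes went down to 11 when lenvatinib replicate 2 or combination replicate 1 was left out, to 12 without combination replicate 2 and to 13 without lenvatinib replicate 1. Lower calls over all genes went down too, from 3309 with all 12 tumors. They were 2433 and 2775 without lenvatinib replicate 2 or 1, and 2377 and 2326 without combination replicate 1 or 2.

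With lenvatinib alone, no proteasome gene passed an adjusted p of 0.05 by edgeR, where 0% of all genes passed. Of the 40, 2 (PSMD12 and PSME4) had an unadjusted p under 0.05, as did 1698 of the 15836 genes tested, and DESeq2 called 1, PSME4, where it called 245 genes in all. Medians were -0.03 over the core and -0.06 over the regulatory particle. PSME4 had 155, 155 and 161 CPM in lenvatinib tumors, against 186, 187 and 206 CPM in vehicle tumors. The groups did not overlap, as for 10.9% of all genes in that direction, and the log2 fold change was -0.29 ± 0.08 with an adjusted p of 0.171 in edgeR over all tumors, 0.0493 in the 2 groups alone and 0.0154 in DESeq2, within a range of 0.0154 to 0.719 over the alternatives. PSMD12 was next, with 32.2, 34.0 and 32.2 CPM in lenvatinib tumors and 40.6, 35.6 and 41.2 CPM in vehicle tumors (-0.25 ± 0.09, adjusted p = 0.303). The 95% intervals of all 40 genes lay between -0.53 (PSMD11) and 0.50 (PSMB10), and a fall as large as the H3B-6527 median of -0.37 was within the intervals of several genes, among them PSMD11, PSMD14, PSMB5 and PSME4.

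Adding lenvatinib to H3B-6527 likewise gave no called proteasome gene by edgeR, where 0.0126% of all genes (2 of 15836) passed. Of the 40, 4 had an unadjusted p under 0.05, as did 1492 of the 15836 genes tested, so their share was near that of all genes. All 4 were lower in combination than in H3B-6527 tumors, and DESeq2 called none of the 40. The 4 genes were PSME4, PSMD1, PSMD5 and PSMD12, and for each of them the 3 combination tumors lay below the 3 H3B-6527 tumors, as 7.15% of all genes did, while no gene of the set had all combination tumors above all H3B-6527 tumors (5.95% of all genes). PSME4 had 113, 123 and 128 CPM in combination tumors and 149, 137 and 152 CPM in H3B-6527 tumors (-0.27 ± 0.08, adjusted p = 0.344). PSMD1 had 141, 152 and 170 CPM in combination tumors and 176, 181 and 209 CPM in H3B-6527 tumors (-0.29 ± 0.10, adjusted p = 0.398). Intervals over the 40 genes ran from -0.50 (PSMD11) to 0.52 (PSMB10).

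PSME4 therefore lay in the order combination, H3B-6527, lenvatinib, vehicle, at 121 ± 7.51, 146 ± 7.96, 157 ± 3.58 and 193 ± 11.1 CPM (SD, n = 3 each). No neighbours in this order differed at an adjusted p under 0.05 in the edgeR fit of all 12 tumors where tested (lenvatinib against vehicle reached 0.0493 in the 2 groups alone), and the difference between H3B-6527 and lenvatinib tumors was not tested. The departure of the combination from the sum of the single agents on the log2 scale was 0.03 ± 0.11 for PSME4. Over the 40 genes no such departure passed by edgeR or DESeq2, none had an unadjusted p under 0.05, and the smallest adjusted p was 0.917, for PSMD5. Medians were 0.08 over the core and 0.05 over the regulatory particle, and the intervals ran from -0.72 (PSMD10) to 0.67 (PSMB5), wide enough to hold departures as large as the falls themselves.

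Genes that work with the proteasome were read from 6 lists and 4 single genes, with H3B-6527 against vehicle and then the combination against vehicle. Their counts stand beside 24.3% of all genes lower and 25.2% higher with H3B-6527 (49.4% in either direction), and 25.3% lower and 24.8% higher with the combination (50.1%). With lenvatinib alone, none of their genes passed an adjusted p of 0.05 by edgeR. ADRM1 and SEM1, regulatory particle subunits whose names fall outside the PSM series, had 1 of 2 lower in each comparison: ADRM1, a ubiquitin receptor, had 56.6, 76.1 and 66.1 CPM in H3B-6527 tumors and 107, 92.2 and 105 CPM in vehicle tumors (-0.61 ± 0.11, adjusted p = 0.000413). Of 7 assembly factors, 4 fell and 1 rose with H3B-6527, and 3 fell and 1 rose with the combination (71.4% and 57.1% called in either direction, the second near the share of all genes). POMP, the chaperone that matures the core particle, had 41.1, 60.2 and 51.5 CPM in H3B-6527 tumors, against 78.2, 74.9 and 84.7 CPM in vehicle tumors (-0.64 ± 0.13, adjusted p = 0.00162). PSMG1 and PSMG4, which assemble the alpha ring, were at -0.49 ± 0.12 and -0.61 ± 0.13 (adjusted p = 0.00405 and 0.00231). PAAF1, a chaperone of the ATPase ring like PSMD5, rose, with 17.8, 19.98 and 13.2 CPM in H3B-6527 tumors and 12.4, 12.2 and 9.88 CPM in vehicle tumors (0.57 ± 0.15, adjusted p = 0.00664).

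Of 13 proteasome-bound proteins and shuttles, 6 fell and 3 rose with H3B-6527, and 8 fell and 3 rose with the combination. That is 69.2% and 84.6% called in either direction, where 49.4% and 50.1% of all genes were. ZFAND5, which stimulates the proteasome, had 25.2, 27.9 and 34.7 CPM in H3B-6527 tumors and 59.98, 60.7 and 63.1 CPM in vehicle tumors (-1.07 ± 0.13, adjusted p = 2.56e-05). ZFAND2A, an arsenite-inducible protein that binds the regulatory particle, had 32.8, 28.8 and 19.98 CPM in H3B-6527 tumors and 14.1, 12.3 and 14.8 CPM in vehicle tumors (0.99 ± 0.16, adjusted p = 0.000253). The shuttle UBQLN2 rose by 0.54 ± 0.09 (adjusted p = 0.000440), while UBQLN1 and UBQLN4 fell, at -0.30 and -0.36.

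The regulators of subunit genes moved in both directions, with 4 of 8 lower and 2 higher in each comparison (75% called, where 49.4% and 50.1% of all genes were). NFE2L1 had 202, 148 and 138 CPM in H3B-6527 tumors, against 125, 120 and 121 CPM in vehicle tumors (0.41 ± 0.12, adjusted p = 0.0116). DDI2, the protease known to release NFE2L1 from its membrane-bound precursor, is counted among the 13 bound proteins and shuttles. It had 86.2, 78.9 and 80.2 CPM in H3B-6527 tumors and 48.3, 48.9 and 46.7 CPM in vehicle tumors (0.77 ± 0.08, adjusted p = 7.03e-06). For both genes all H3B-6527 tumors were above all vehicle tumors, as for 28.1% of all genes. H3B-6527 replicate 1 was the highest of its group for NFE2L1, and also for DDI2, UBQLN2 and ZFAND2A. PAAF1, which also rose, was highest in replicate 2 (19.98 CPM, against 17.8 CPM in replicate 1). The share of all genes highest in replicate 1 was not computed, so this cannot be read as particular to these genes. Whether NFE2L1 levels were tied to subunit levels was not tested. NFE2L3, a relative of NFE2L1, rose by 0.64 ± 0.10 (adjusted p = 0.000256). NFE2L2, which encodes NRF2 and can also act on subunit genes, went the other way, with 49.5, 50.0 and 54.3 CPM in H3B-6527 tumors and 138, 130 and 139 CPM in vehicle tumors (-1.40 ± 0.16, adjusted p = 1.96e-05). The small MAF partner genes MAFF, MAFG and MAFK fell, at log2 fold changes of -2.43, -1.89 and -1.27, on low counts (273 and 574 in all for MAFF and MAFG).

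**Figure D5:**
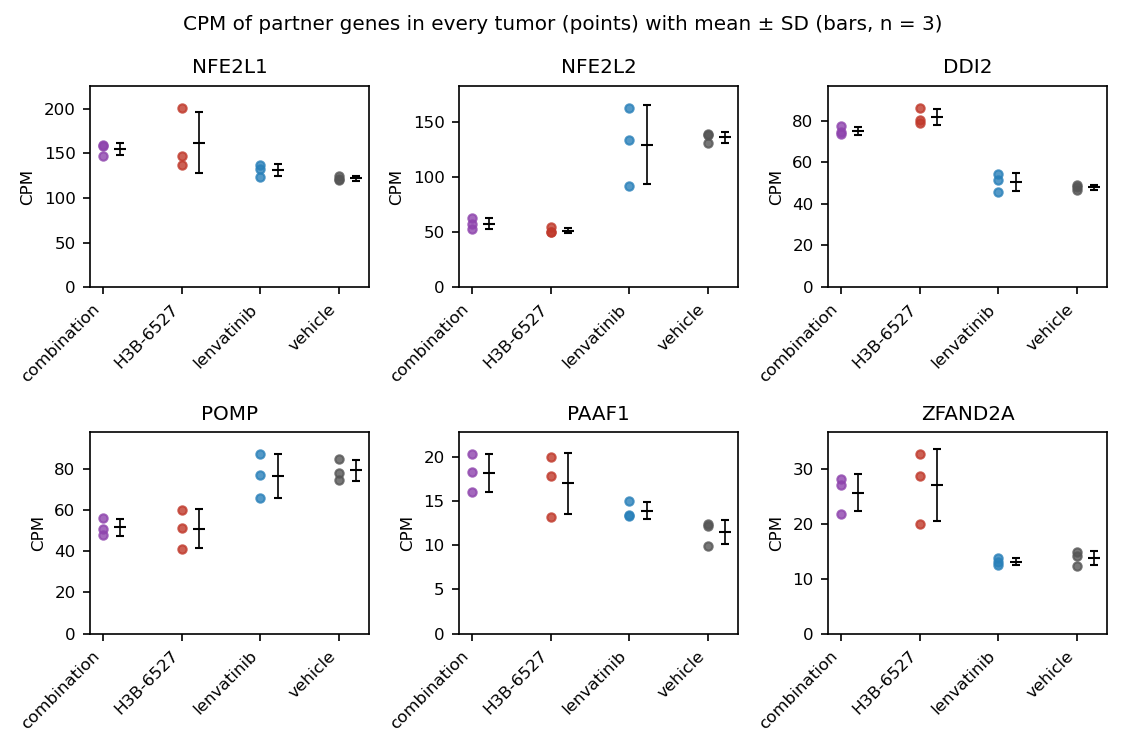
CPM (y axis, from 0) in every tumor of the 4 groups for 6 genes that work with the proteasome, with mean and SD bars (n = 3). NFE2L1, DDI2, PAAF1 and ZFAND2A are higher and NFE2L2 and POMP lower in combination and H3B-6527 tumors than in vehicle tumors, with NFE2L2 at 49.5 to 54.3 CPM in H3B-6527 tumors and 130 to 139 CPM in vehicle tumors.

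Among 10 NRF2 target genes outside the proteasome, 6 fell and 1 rose with H3B-6527, and 5 fell and 1 rose with the combination (70% and 60% called in either direction, where 49.4% and 50.1% of all genes were). SLC7A11, the cystine transporter, had 1.93, 1.65 and 4.06 CPM in H3B-6527 tumors and 10.2, 9.91 and 10.4 CPM in vehicle tumors (-2.04 ± 0.25, adjusted p = 3.75e-05). NQO1, a quinone reductase, had 12.6, 11.9 and 13.0 CPM in H3B-6527 tumors and 29.2, 21.1 and 26.6 CPM in vehicle tumors (-1.03 ± 0.12, adjusted p = 2.09e-05). The gene that rose was ABCC2, an export pump of hepatocytes (0.29 ± 0.09, adjusted p = 0.0154).

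Upstream of the proteasome, RPS27A, which encodes ubiquitin fused to a ribosomal protein, had 317, 536 and 449 CPM in H3B-6527 tumors and 755, 707 and 740 CPM in vehicle tumors (-0.76 ± 0.15, adjusted p = 0.00121). The groups did not overlap. The polyubiquitin gene UBB did not pass, at 0.00 ± 0.11 (adjusted p = 0.995). UBA6, a ubiquitin-activating enzyme, fell (-0.34 ± 0.08, adjusted p = 0.00503), and UBA1, the main such enzyme, did not pass (-0.10 ± 0.10, adjusted p = 0.446). Of 7 genes of the p97 unfoldase, which extracts substrates for the proteasome, 4 fell and 1 rose with H3B-6527, and 3 fell with the combination (71.4% and 42.9% called in either direction, the second below the 50.1% of all genes). VCP, p97 itself, did not pass (0.01 ± 0.09), UBXN1 fell by 0.42 on the log2 scale, and the substrate adaptor NPLOC4 rose by 0.41 ± 0.07 (adjusted p = 0.000436).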

How the data were processed

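RNA-seq of 12 Hep3B xenograft tumors was used, 3 mice in each of 4 groups taken from the treatment labels; replicate numbers only name tumors. The authors deposited a gene table of kallisto expected counts; the submitters' processing notes also name STAR, GRCh37 and GRCm38, and their roles, versions and any removal of mouse reads are not given in the sources used here. Of the values, 40.2% were not whole, and all were rounded. Conserved mouse reads could enter these human genes, and kallisto may split reads between subunit genes and their pseudogenes; neither was tested. Genes were filtered with filterByExpr (15836 kept), scaled by TMM and fitted with edgeR 4.0.16 (R 4.3.3) by the robust quasi-likelihood F-test over all 12 libraries, 2-sided, with Benjamini-Hochberg adjustment over all 15836 genes and a threshold of 0.05. SE is the log2 fold change over the root of F, and intervals are 95% intervals. Non-additivity is the log2 departure from the sum of the single agents. Alternatives were DESeq2 1.42.0, other size factors, no filter, the 2 groups alone and leaving out each tumor; the tests were tried on simulated data. Genes with values were those of fixed roles, the 3 smallest p of each PSM letter and up to 4 of each list, some more being added after their values were seen. The members and lists were chosen with earlier results of these data known. Sequences and coordinates were not used here, so the planned promoter search was not run. Some items of the ubiquitin gene list are not reported here.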

Additional observations from a re-analysis of the deposited data

How the results depend on the processing

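No paired analysis was possible because the labels give no replicate numbers or pairing between groups. Apart from counts and medians over all genes, the alternatives were read for the proteasome genes only. None of the proteasome results changed direction past its threshold. Genes that work with the proteasome were not checked in this way. H3B-6527 against vehicle gave 18 lower genes when only those 2 groups were fitted, and 18 to 29 lower and 1 to 4 higher when each tumor was left out (18 without vehicle replicate 3, 1 higher without H3B-6527 replicate 2). The combination against vehicle gave 19 to 25 lower and 3 higher, and against lenvatinib 11 to 21 lower and 2 higher. Lenvatinib against vehicle gave 1 lower gene, PSME4, with DESeq2 and with the 2 groups alone, and 0 otherwise. Over all genes, 117 and 88 were lower in those 2 fits. Leave-one-out medians ran from -0.46 to -0.28 (core) and -0.45 to -0.24 (regulatory) with H3B-6527, from -0.44 to -0.30 and -0.45 to -0.34 with the combination, from -0.064 (without H3B-6527 replicate 1) to 0.15 and -0.14 to 0.012 for the combination against H3B-6527, and from -0.019 to 0.21 and -0.068 to 0.12 for non-additivity. Scaling by library totals alone moved the median of all genes to -0.11, -0.14 and -0.11 for H3B-6527 against vehicle and the combination against vehicle and lenvatinib. The combination medians then were -0.52 (core) and -0.53 (regulatory) against vehicle, and -0.40 and -0.42 against lenvatinib, which is -0.38, -0.39, -0.29 and -0.31 relative to all genes; the calls over all genes became 3022 higher and 4960 lower, 2923 and 5339, and 2293 and 4348. Calls kept under every alternative were 18 of 31 for H3B-6527 against vehicle, 21 of 28 for the combination against vehicle and 13 of 24 against lenvatinib. Each of the 40 genes had at least 2205 counts in all, and 3 tumors a group limit the precision.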
